A study of Homo sapiens with 6 samples.

Results

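The genes described here fold, export and degrade proteins of the endoplasmic reticulum (ER) and sense when that work fails. They are 44 genes chosen by name: 3 stress sensors, 24 chaperones and folding enzymes, 10 genes of ER-associated degradation (ERAD) and 7 genes of protein translocation into the ER. Each symbol matched 1 gene among the 61498 genes of the tables, and all 44 passed the low-count filter that left 20081 genes for testing.

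Expression was measured by RNA-seq of total RNA after removal of ribosomal RNA, in 3 human cell lines with 2 libraries each and no treatment of any of them. RPMI-8226-R is a derivative of RPMI-8226 with resistance to the proteasome inhibitor bortezomib. RPMI-8226 is a line from multiple myeloma, a cancer of antibody-secreting plasma cells. NCI-BL2171 is the line both are set against, and the labels give B lymphocytes as the cell type of all 3. How the resistant derivative was selected, and whether it is a single clone, is not given in the sources used here. Nothing in the labels tells whether both libraries of a line were made from different cultures; the p-values below therefore describe only how far these libraries spread, and that spread may be technical.

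Secretory cells push large amounts of unfolded polypeptide into the ER through the SEC61 channel, where HSP70 and HSP90 chaperones, lectins and disulfide isomerases fold it. Polypeptides that fail to fold are recognised by lectins and mannosidases, drawn back through the membrane by ERAD complexes and destroyed by the proteasome. When unfolded protein builds up, the sensors IRE1 (gene ERN1), ATF6 and PERK (gene EIF2AK3) start the unfolded protein response. IRE1 splices the XBP1 mRNA, ATF6 is cut into a transcription factor, and PERK slows translation and raises the factor ATF4. Plasma cells depend on this system because they secrete antibody, and it has long been studied in connection with proteasome inhibitors in myeloma.

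The 6 libraries held 23952370 to 29052199 estimated reads, of which the 44 genes took 1.39% and 1.43% in RPMI-8226-R, 1.89% and 1.88% in RPMI-8226, and 2.03% and 2.11% in the libraries labelled NCI-BL2171. Pearson correlations between both libraries of each line were 0.994 to 0.995 across genes on the log2 scale, where genes are not independent replicates. Of 10 plasma cell markers, 9 averaged at least 1 TPM in each RPMI line, with summed levels of 32864 and 33913 TPM in RPMI-8226-R and 53866 and 56451 TPM in RPMI-8226. These sums do not give the direction of most markers. By the test described below, 7 of the 10 were called higher and 2 lower in RPMI-8226-R than in RPMI-8226. In the libraries labelled NCI-BL2171 the plasma cell markers summed to 47.9 and 50.7 TPM, 2 of the 10 averaged at least 1 TPM, and IRF4 and JCHAIN were at 0. XBP1, at a mean of 46.2 TPM, made up most of that sum in these libraries. There 11 of 12 erythroid markers averaged at least 1 TPM, with a sum of 64214 and 61423 TPM. The 10 B cell markers summed to 160 and 168 TPM in RPMI-8226-R, 5481 and 5638 TPM in RPMI-8226, and 5.61 and 5.76 TPM in the libraries labelled NCI-BL2171, where MS4A1 and PAX5 were at 0. CD74 made up most of that sum in both RPMI lines, and 2 of the 10 averaged at least 1 TPM in RPMI-8226-R, 4 in RPMI-8226 and 2 in the libraries labelled NCI-BL2171. The erythroid markers of that group go against its label, by which alone it is named here; the part of the B cell marker difference between the RPMI lines in the results below was not tested. In bulk RNA, fewer cells of a type and less RNA per cell cannot be told apart.

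Levels below are the deposited TPM, a scale per transcript length that allows genes to be compared. Fold changes come from the estimated counts after TMM scaling, tested with edgeR's quasi-likelihood F test and called at an adjusted p under 0.05 over all genes tested; values with ± beside an adjusted p are log2 fold changes with their standard error. The choice of scale matters for small changes. Between RPMI-8226-R and RPMI-8226 the log2(TPM + 1) scale moved the difference of each gene by a median of 0.36 relative to the TMM scale. Mitochondrial genes took 112256 and 95041 TPM in RPMI-8226-R against 50594 and 52246 TPM in RPMI-8226, and immunoglobulin genes took 66014 and 67841 TPM against 112172 and 114926 TPM. A count of calls shared by 6 scalings is therefore given beside the count on the TMM scale; it was chosen after the data were seen.

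Part of this gene set is known to be induced by ER stress through promoter elements. The ER stress response element (ERSE), CCAAT and CCACG with any 9 bases between them, is bound by ATF6 together with NF-Y, and the shorter ERSE-II, ATTGG and CCACG with any 1 base between them, by ATF6 and XBP1. Both were searched on both strands in the 300 bases around each RefSeq gene start (250 before and 50 after; GRCh38.p14). An entry was found for 40 of the 44 genes. ERSE stood in 7 of them (CALR, CANX, CRELD2, ERO1B, HSP90B1, HSPA5 and PDIA6) and in 0.0916% of all 27305 genes with an entry (0.0769% of all 35116 promoters). ERSE-II stood in 3 (HERPUD1, HYOU1 and SDF2L1) and in 0.0696% of all genes with an entry (0.0541% of all promoters). As exact matches, the 2 elements shared no gene among the 40. Near matches were not counted, so a gene counted as without an element may hold a near match. The XBP1 core TGACGTG stood in 7 of the 40 (FKBP11, HYOU1, SEC61A1, SSR3, SSR4, TXNDC11 and TXNDC5) and in 2.4% of all genes with an entry (1.97% of all promoters). In HYOU1 it overlapped an ERSE-II by 4 bases. These matches are descriptions of the letters and do not show binding in these cells.

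The promoters of 4 of these genes are shown. In RPMI-8226-R against RPMI-8226, HSPA5 and HERPUD1 were lower, at -1.38 and -1.92 on the log2 scale. SDF2L1 and CRELD2 were higher, at 0.29 and 0.32. This choice does not mirror the 10 genes with an ERSE or ERSE-II, of which 2 were called higher and 7 lower. The shares of all genes tested were 28.5% and 37.2%. In the 4 promoters, capitals mark the ERSE or ERSE-II, which lies on the other strand where it begins with CGTGG. They lie at chr9:125241294-125241593 (minus strand) for HSPA5, chr16:56931892-56932191 (plus strand) for HERPUD1, chr22:21642052-21642351 (plus strand) for SDF2L1 and chr22:49918384-49918683 (plus strand) for CRELD2, all in GRCh38.p14.
HSPA5: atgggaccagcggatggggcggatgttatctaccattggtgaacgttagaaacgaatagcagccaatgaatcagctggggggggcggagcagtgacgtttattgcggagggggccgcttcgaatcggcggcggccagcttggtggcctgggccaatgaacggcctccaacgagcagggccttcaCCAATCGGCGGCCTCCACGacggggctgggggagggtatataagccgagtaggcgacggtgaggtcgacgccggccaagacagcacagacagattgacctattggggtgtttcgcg
HERPUD1: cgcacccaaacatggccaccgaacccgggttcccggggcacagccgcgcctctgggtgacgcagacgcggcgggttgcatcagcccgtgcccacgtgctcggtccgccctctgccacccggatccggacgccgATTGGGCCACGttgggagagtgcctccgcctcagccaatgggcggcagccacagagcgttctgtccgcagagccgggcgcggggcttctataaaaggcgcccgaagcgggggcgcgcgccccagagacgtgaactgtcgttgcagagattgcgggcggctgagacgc
SDF2L1: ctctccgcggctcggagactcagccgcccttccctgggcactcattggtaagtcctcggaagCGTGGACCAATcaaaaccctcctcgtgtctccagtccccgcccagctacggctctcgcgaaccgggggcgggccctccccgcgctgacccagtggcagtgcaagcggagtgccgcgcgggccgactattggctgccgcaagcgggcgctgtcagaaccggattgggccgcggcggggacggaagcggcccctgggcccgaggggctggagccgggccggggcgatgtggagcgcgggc
CRELD2: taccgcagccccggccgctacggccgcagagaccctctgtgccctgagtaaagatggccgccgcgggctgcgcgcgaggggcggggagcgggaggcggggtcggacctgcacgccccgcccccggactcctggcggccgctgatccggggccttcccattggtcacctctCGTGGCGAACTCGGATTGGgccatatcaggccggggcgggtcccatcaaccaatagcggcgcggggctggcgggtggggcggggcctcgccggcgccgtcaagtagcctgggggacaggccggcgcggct
The element begins 66 bases before the gene start in HSPA5, 117 in HERPUD1, 188 in SDF2L1 and 80 in CRELD2.

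Together the 44 genes amounted to 8020 and 8407 TPM in RPMI-8226-R, 10463 and 10305 TPM in RPMI-8226, and 9551 and 9916 TPM in the libraries labelled NCI-BL2171. With 2 libraries against 2, an exact permutation test cannot give a two-sided p below 0.333, so sums are given as values. The 3 groups did not overlap on this scale, with RPMI-8226-R lowest. Without immunoglobulin and mitochondrial genes in the total, RPMI-8226-R, at 9760 and 10042, overlapped the libraries labelled NCI-BL2171, at 9843 and 10170, and both lay below RPMI-8226, at 12497 and 12373. The role groups did not share that order. The 10 ERAD genes summed to 781 and 893 TPM in RPMI-8226-R, 1440 and 1413 TPM in RPMI-8226, and 543 and 536 TPM in the libraries labelled NCI-BL2171. HERPUD1 alone held 285 and 312 TPM of this in RPMI-8226-R and 904 and 895 TPM in RPMI-8226. Of the 10 genes, 3 were called higher and 4 lower in RPMI-8226-R than in RPMI-8226, against 28.5% and 37.2% of all genes tested. The 7 translocation genes summed to 1965 and 1988 TPM in RPMI-8226-R, 1842 and 1846 TPM in RPMI-8226, and 975 and 989 TPM in the libraries labelled NCI-BL2171. RPMI-8226-R was above RPMI-8226 on this scale and below it after TMM scaling of the TPM, at 1830 and 1751 in RPMI-8226-R against 2050 and 2117 in RPMI-8226. The 11 genes of the HSP70 and HSP90 systems summed to 2462 and 2613 TPM in RPMI-8226-R, 3925 and 3895 TPM in RPMI-8226, and 4818 and 5016 TPM in the libraries labelled NCI-BL2171.

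**Figure D1:**
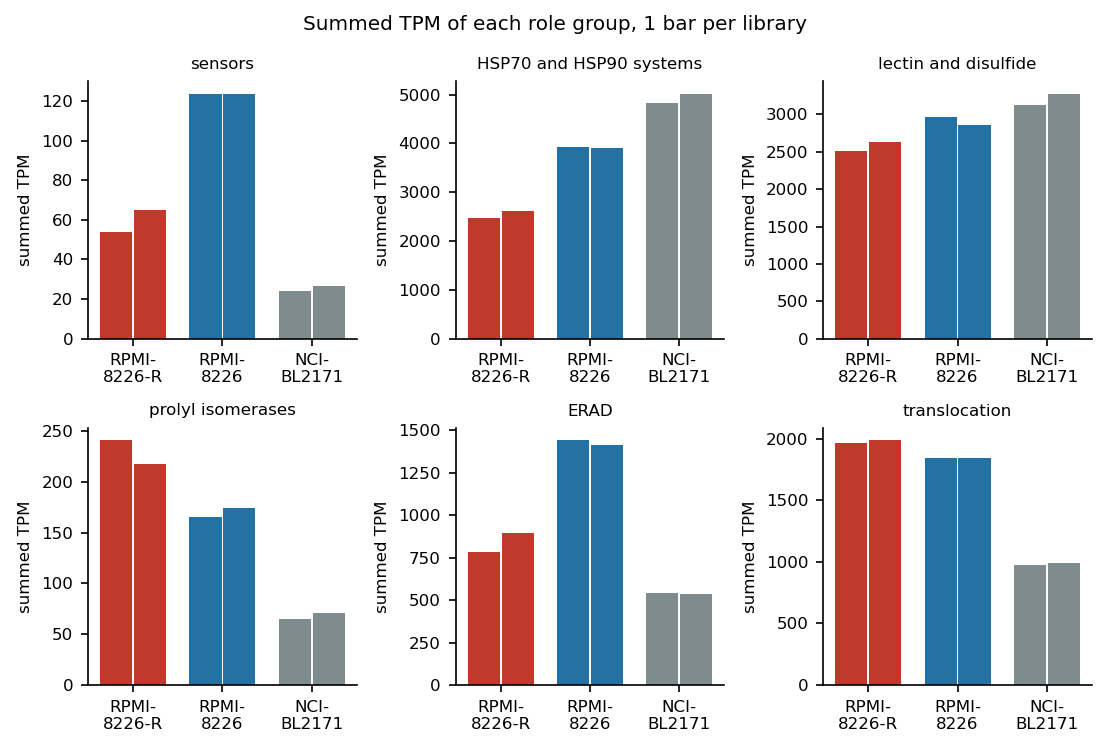
Summed TPM (y axis, from 0) of each role group, with 1 bar per library for RPMI-8226-R, RPMI-8226 and the libraries labelled NCI-BL2171. The ERAD sum stands highest in RPMI-8226, at 1440 and 1413 TPM. Of it HERPUD1 alone holds 904 and 895 TPM, against 285 and 312 TPM in RPMI-8226-R. The translocation sum stands highest in RPMI-8226-R, at 1965 and 1988 TPM. TMM scaling turns this order between the RPMI lines round, to 1830 and 1751 in RPMI-8226-R against 2050 and 2117 in RPMI-8226.

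Single genes held much of each sum, and not the same ones. MZB1, a co-chaperone of antibody-secreting B cells that works with GRP94, was the most abundant of the 44 in RPMI-8226-R and in RPMI-8226. It averaged 869 ± 29.2 TPM in RPMI-8226-R and 1427 ± 23.9 TPM in RPMI-8226 (SD, n = 2 each), which was 10.6% and 13.8% of the members' TPM in these lines. CALR followed in both, with libraries below those of MZB1 and, in RPMI-8226, overlapping those of HERPUD1. In the libraries labelled NCI-BL2171 the order began with HSP90B1 at 2183 ± 92.7 TPM, CALR at 1815 ± 82.8 TPM and HSPA5 at 1789 ± 52.5 TPM (SD, n = 2), of which the libraries of CALR and HSPA5 overlapped. These 3 chaperones made up 59.5% of the members' TPM there. At the other end, ERO1B was lowest in RPMI-8226-R at 1.53 ± 0.09 TPM and in RPMI-8226 at 6.08 ± 0.56 TPM (SD, n = 2 each), where its libraries overlapped those of EDEM3, and MZB1 was lowest in the libraries labelled NCI-BL2171 with no read.

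**Figure D2:**
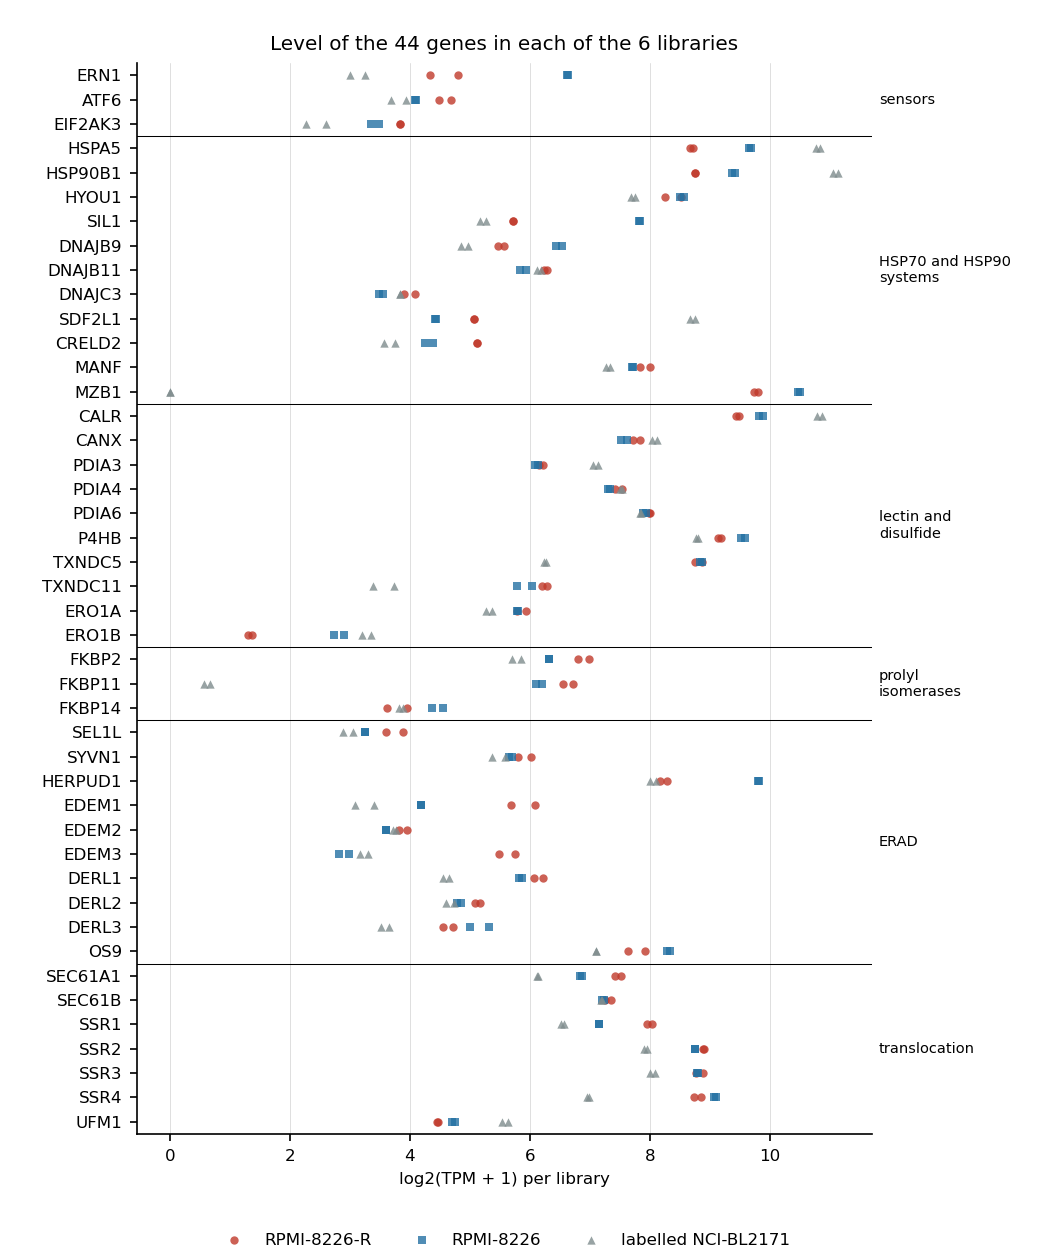
Levels of the 44 genes, as log2(TPM + 1) on the x axis, with 1 point per library, ordered by role down the page. The 2 points of a line mostly lie close together, and MZB1 stands at 0 in the libraries labelled NCI-BL2171.

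RPMI-8226-R was set against RPMI-8226 to describe how the resistant derivative differs from its parent. The abundant chaperones BiP (HSPA5), GRP94 (HSP90B1) and MZB1, the BiP exchange factor SIL1, the sensor ERN1 and the ERAD organiser HERPUD1 were lower in RPMI-8226-R, while the ERAD mannosidase-like genes EDEM3 and EDEM1 were higher. Of the 44 genes, 9 were called higher and 26 lower, and 9 did not pass the test; without RPMI-8226 replicate 1 only 5 were called higher. Among all genes tested, 28.5% were called higher and 37.2% lower. Under all 6 scalings 6 genes were called higher and 15 lower, against 22.5% and 21.5% of all genes. At a change of at least 2-fold 2 were higher and 9 lower, against 11.8% and 21.5% of all genes. The median log2 fold change was -0.22 for the 44 and -0.12 for all genes. On the log2(TPM + 1) scale it was 0.11 for the 44 and 0.08 for all genes. The sign of the members' median therefore did not hold on both scales, and on each it followed the sign for all genes.

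**Figure D3:**
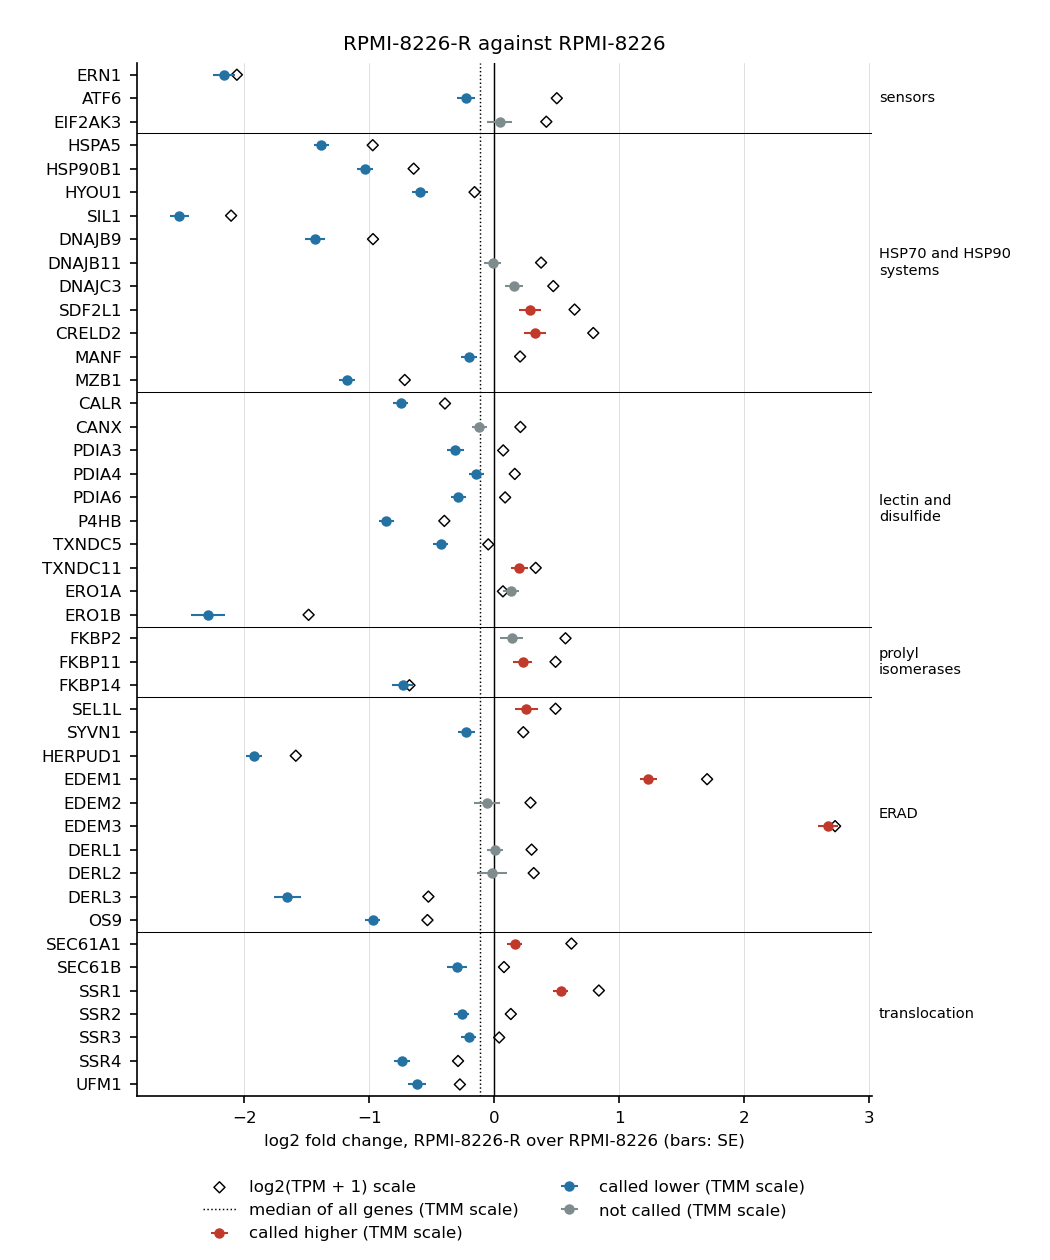
Log2 fold change of each of the 44 genes, RPMI-8226-R over RPMI-8226, on the TMM scale (filled circles, bars are SE, colour gives the call) and on the log2(TPM + 1) scale (open diamonds). ERN1, SIL1, HERPUD1 and ERO1B lie far to the left and EDEM1 and EDEM3 far to the right on both scales, while many genes near 0 lie on different sides.

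Of the 3 sensors 2 were called lower, ERN1 by far more than ATF6, and EIF2AK3 did not pass. For this and the later role groups in this comparison, the shares among all genes tested were 28.5% higher and 37.2% lower. Under all 6 scalings they were 22.5% and 21.5%. ERN1 (ENSG00000178607.17; chromosome 17, 64039142 to 64130819, minus strand, GRCh38), the kinase and nuclease that splices XBP1, stood at 19.3 and 26.8 TPM in RPMI-8226-R against 98.1 and 97.6 TPM in RPMI-8226. The lines did not overlap, and the log2 fold change was -2.16 ± 0.09 (edgeR adjusted p = 2e-11). ATF6, the membrane-bound transcription factor, stood at 21.5 and 24.8 TPM in RPMI-8226-R against 16.2 and 15.9 TPM in RPMI-8226. It was called lower on the TMM scale, at -0.23 ± 0.07 (edgeR adjusted p = 0.012), but higher on the TPM scale, at 0.50; the mean transcript length that the tables give for it averaged 4058 bases in RPMI-8226-R against 5255 bases in RPMI-8226, and the call was lost without RPMI-8226-R replicate 1 or either library of RPMI-8226. EIF2AK3, the kinase PERK, stood at 13.2 and 13.2 TPM in RPMI-8226-R against 9.19 and 10.2 TPM in RPMI-8226 and did not pass, at 0.04 ± 0.10 (edgeR adjusted p = 0.74). The TPM ratio of ERN1 to ATF6 was 0.898 and 1.08 in RPMI-8226-R against 6.06 and 6.15 in RPMI-8226.

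Of the 11 genes of the HSP70 and HSP90 systems 2 rose, 7 fell and 2 did not pass. HSPA5, the ER HSP70 BiP that also holds the sensors inactive, stood at 405 and 420.5 TPM in RPMI-8226-R against 822 and 799.9 TPM in RPMI-8226. The levels did not overlap, and the log2 fold change was -1.38 ± 0.06 (edgeR adjusted p = 4.6e-14). HSP90B1, the ER HSP90 GRP94, stood at 428 and 430.0 TPM in RPMI-8226-R against 685 and 658 TPM in RPMI-8226, a log2 difference of -1.03 ± 0.06 (edgeR adjusted p = 5.5e-12). Its named pseudogenes HSP90B2P and HSP90B3P held at most 8.81% and 5.39% as many reads as HSP90B1 in any library. MZB1 stood at 848 and 889 TPM in RPMI-8226-R against 1410.5 and 1444 TPM in RPMI-8226, a log2 difference of -1.18 ± 0.06 (edgeR adjusted p = 1.8e-12). The TPM ratio of MZB1 to its partner HSP90B1 was 1.98 and 2.07 in RPMI-8226-R and 2.06 and 2.19 in RPMI-8226, which overlap.

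The partners of BiP did not move as a block. SIL1, which releases ADP from BiP, stood at 51.9 and 51.4 TPM in RPMI-8226-R against 228 and 223 TPM in RPMI-8226. This was the steepest fall of the 44, at -2.52 ± 0.08 (edgeR adjusted p = 7.2e-17). HYOU1, a large HSP70 relative that also exchanges BiP's nucleotide, stood at 302 and 364 TPM against 378 and 362 TPM and was 1.51-fold lower on the TMM scale (edgeR adjusted p = 3.2e-08), but its libraries overlapped on the TPM scale. The TPM ratio of SIL1 to HYOU1 was 0.172 and 0.141 in RPMI-8226-R against 0.603 and 0.616 in RPMI-8226. DNAJB9 (ERdj4), a J-domain partner of BiP in ERAD and a repressor of IRE1, stood at 43.3 and 46.2 TPM in RPMI-8226-R against 85.9 and 91.5 TPM in RPMI-8226, a log2 difference of -1.44 ± 0.08 (edgeR adjusted p = 1.1e-12). Its ratio to HSPA5 overlapped between the lines, at 0.107 and 0.110 in RPMI-8226-R and 0.104 and 0.114 in RPMI-8226. The J-domain genes DNAJB11, at -0.01 ± 0.07 (edgeR adjusted p = 0.91), and DNAJC3, at 0.16 ± 0.07 (edgeR adjusted p = 0.061), did not pass; DNAJC3 was called higher without RPMI-8226-R replicate 1, at 0.21 (edgeR adjusted p = 0.021).

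The 2 rises in this group were small and held under all 6 scalings. CRELD2, an ER stress-induced protein with isomerase activity, stood at 33.6 and 33.6 TPM in RPMI-8226-R against 20.0 and 18.0 TPM in RPMI-8226, a log2 difference of 0.32 ± 0.09 (edgeR adjusted p = 0.0029). SDF2L1, which binds DNAJB11 in BiP complexes, stood at 32.5 and 32.7 TPM against 20.3 and 20.7 TPM, a log2 difference of 0.29 ± 0.09 (edgeR adjusted p = 0.0082) that lost its call without RPMI-8226 replicate 1, at 0.24 (edgeR adjusted p = 0.094). The secreted stress factor MANF was 1.15-fold lower on the TMM scale (edgeR adjusted p = 0.0086) but positive, at 0.21, on the TPM scale, and lost its call without either library of RPMI-8226. Of the 10 genes whose promoters held an ERSE or ERSE-II, 2 were called higher, 7 lower and 1 did not pass, and 2 and 5 held under all 6 scalings. The 30 others with a promoter entry had 7 called higher, 16 lower and 7 that did not pass, and 4 and 8 held. Among all genes tested, 28.5% were called higher and 37.2% lower.

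Of the 10 lectin and disulfide genes 1 rose, 7 fell and 2 did not pass, and 3 of the falls held under all scalings. ERO1B, an oxidase that recharges the disulfide isomerase P4HB, stood at 1.47 and 1.59 TPM in RPMI-8226-R against 6.48 and 5.69 TPM in RPMI-8226, a log2 difference of -2.29 ± 0.13 (edgeR adjusted p = 3.6e-12). Its more abundant paralog ERO1A stood at 54.4 and 60.3 TPM against 54.8 and 54.3 TPM and did not pass, at 0.13 ± 0.07 (edgeR adjusted p = 0.087). Their TPM ratio, ERO1B to ERO1A, was 0.0270 and 0.0263 in RPMI-8226-R against 0.118 and 0.105 in RPMI-8226. The lectin chaperone CALR stood at 691 and 711 TPM in RPMI-8226-R against 942 and 902 TPM in RPMI-8226 and was 1.68-fold lower (edgeR adjusted p = 5e-10), whereas its membrane-bound relative CANX did not pass, at -0.12 ± 0.06 (edgeR adjusted p = 0.08). P4HB, the principal disulfide isomerase, stood at 560.0 and 578 TPM against 766 and 736 TPM and was 1.82-fold lower (edgeR adjusted p = 5.3e-11).

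The other disulfide genes moved little. PDIA4, PDIA6 and PDIA3, the partner of the lectin chaperones, were called lower by 0.14 to 0.31 on the log2 TMM scale and were positive, at 0.07 to 0.16, on the log2(TPM + 1) scale. The call of PDIA4 was lost without any 1 of 5 libraries, at edgeR adjusted p from 0.057 to 0.20. Reads of PDIA3 cannot be separated with confidence from its near-identical copy PDIA3P1, to which the tables gave 210% to 238% as many reads. PDIA3 and PDIA3P1 together stood at 264 and 273 TPM in RPMI-8226-R, 247 and 250 TPM in RPMI-8226, and 468 and 503 TPM in the libraries labelled NCI-BL2171. TXNDC5, a plasma cell disulfide isomerase, was 1.35-fold lower on the TMM scale (edgeR adjusted p = 2.2e-06) with a difference of -0.05 on the TPM scale. TXNDC11, a disulfide enzyme linked to EDEM proteins, was called higher, at 0.20 ± 0.07 (edgeR adjusted p = 0.011), a call lost without RPMI-8226 replicate 2. Among the 3 prolyl isomerases FKBP11 was called higher, at 0.23 ± 0.07 (edgeR adjusted p = 0.011), FKBP14 lower, at -0.73 ± 0.09 (edgeR adjusted p = 1.7e-07), and FKBP2 did not pass, at 0.14 ± 0.09 (edgeR adjusted p = 0.18); FKBP11 lost its call without RPMI-8226 replicate 1, and FKBP2 gained one without RPMI-8226-R replicate 2, at 0.30 (edgeR adjusted p = 0.0042).

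Of the 10 ERAD genes, 3 rose, 4 fell and 3 did not pass. These counts were close to the shares of all genes tested, 28.5% higher and 37.2% lower. EDEM3, a lectin-like protein that trims mannose from misfolded glycoproteins, stood at 43.9 and 53.1 TPM in RPMI-8226-R against 6.90 and 6.03 TPM in RPMI-8226. This was the steepest rise of the 44, at 2.67 ± 0.08 (edgeR adjusted p = 8.8e-17). EDEM1, its relative, stood at 50.3 and 66.8 TPM against 17.1 and 17.2 TPM, a log2 difference of 1.23 ± 0.07 (edgeR adjusted p = 1.5e-12). The third relative, EDEM2, stood at 13.2 and 14.5 TPM against 11.1 and 11.2 TPM and did not pass, at -0.06 ± 0.10 (edgeR adjusted p = 0.64). The TPM ratio of EDEM3 to EDEM2 was 3.34 and 3.66 in RPMI-8226-R against 0.623 and 0.539 in RPMI-8226, so their order was reversed between the lines.

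HERPUD1, a membrane protein that assembles the ERAD ubiquitin ligase, stood at 285 and 312 TPM in RPMI-8226-R against 904 and 895 TPM in RPMI-8226. The log2 fold change was -1.92 ± 0.06 (edgeR adjusted p = 2.8e-16). The ligase itself, SYVN1 (HRD1), stood at 54.5 and 63.7 TPM against 49.0 and 51.0 TPM; it was called lower on the TMM scale, at -0.22 ± 0.07 (edgeR adjusted p = 0.0059), and positive, at 0.23, on the TPM scale, and it lost its call without RPMI-8226-R replicate 1 or RPMI-8226 replicate 1. The TPM ratio of HERPUD1 to SYVN1 was 5.24 and 4.90 in RPMI-8226-R against 18.4 and 17.6 in RPMI-8226. SEL1L, the adaptor of SYVN1, was called higher, at 0.26 ± 0.09 (edgeR adjusted p = 0.018), a call lost without RPMI-8226-R replicate 2 or either library of RPMI-8226. OS9, a lectin that hands glycoproteins to SEL1L, stood at 197 and 239.9 TPM in RPMI-8226-R against 321 and 309 TPM in RPMI-8226 and was 1.96-fold lower (edgeR adjusted p = 1.5e-11).

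Of the 3 derlins, proteins of the retrotranslocation channel, DERL3 stood at 25.3 and 22.5 TPM in RPMI-8226-R against 39.1 and 31.0 TPM in RPMI-8226. The log2 fold change was -1.65 ± 0.11 (edgeR adjusted p = 1.1e-10) on the TMM scale and -0.53 on the TPM scale, and the mean transcript length given for DERL3 was 1173 bases in RPMI-8226-R against 1815 bases in RPMI-8226. DERL3 overlaps SMARCB1 on the other strand, and because the use of strand in counting is not given in the sources used here, their reads cannot be told apart with confidence. DERL1, at 0.01 ± 0.06 (edgeR adjusted p = 0.94), and DERL2, at -0.02 ± 0.12 (edgeR adjusted p = 0.92), did not pass.

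Among the 7 translocation genes 2 rose and 5 fell, none by 2-fold. SSR1, a subunit of the translocon-associated protein (TRAP) complex, stood at 247 and 259.8 TPM in RPMI-8226-R against 141 and 142 TPM in RPMI-8226, a log2 difference of 0.53 ± 0.06 (edgeR adjusted p = 1.5e-07). SSR4, another subunit of the same complex, stood at 459 and 427 TPM against 536 and 546 TPM, a log2 difference of -0.74 ± 0.06 (edgeR adjusted p = 1.8e-09). Genes that overlap SSR1 held up to 110% as many reads as it did. The 2 subunits changed in opposite directions under all 6 scalings, and their TPM ratio, SSR1 to SSR4, was 0.539 and 0.609 in RPMI-8226-R against 0.264 and 0.259 in RPMI-8226. The pore subunit SEC61A1 was called higher, at 0.16 ± 0.06 (edgeR adjusted p = 0.02), a call lost without either library of RPMI-8226. UFM1, the ubiquitin-like modifier that acts on ribosomes at the translocon, was 1.54-fold lower (edgeR adjusted p = 2e-07). SEC61B, SSR2 and SSR3 were called lower by 0.21 to 0.30 on the log2 TMM scale and were positive, at 0.04 to 0.13, on the log2(TPM + 1) scale; the call of SSR3 was lost without RPMI-8226 replicate 2.

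The signalling genes downstream of the sensors moved apart. XBP1, the target of IRE1, stood at 300.3 and 305 TPM in RPMI-8226-R against 194 and 189 TPM in RPMI-8226, a log2 difference of 0.29 ± 0.06 (edgeR adjusted p = 0.00027); its spliced form was not analysed here. ATF4, the factor downstream of PERK, stood at 372 and 391 TPM against 645 and 656 TPM, a log2 difference of -1.16 ± 0.06 (edgeR adjusted p = 5.5e-13). DDIT3 (CHOP), a pro-apoptotic factor that ATF4 induces, stood at 4.54 and 4.60 TPM in RPMI-8226-R against 135 and 149.8 TPM in RPMI-8226. Its lines differed by -5.38 ± 0.10 (edgeR adjusted p = 4.7e-20). PPP1R15A (GADD34), the phosphatase subunit that restarts translation, stood at 2.83 and 3.21 TPM against 127 and 142 TPM, a log2 difference of -5.85 ± 0.10 (edgeR adjusted p = 2.9e-21). TRIB3, a pseudokinase also induced through ATF4, stood at 23.6 and 21.3 TPM against 5.34 and 4.81 TPM, a log2 difference of 1.75 ± 0.09 (edgeR adjusted p = 7.7e-13), and MBTPS1, the protease that cuts ATF6, rose by 1.14 ± 0.08 (edgeR adjusted p = 4.5e-11).

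**Figure D4:**
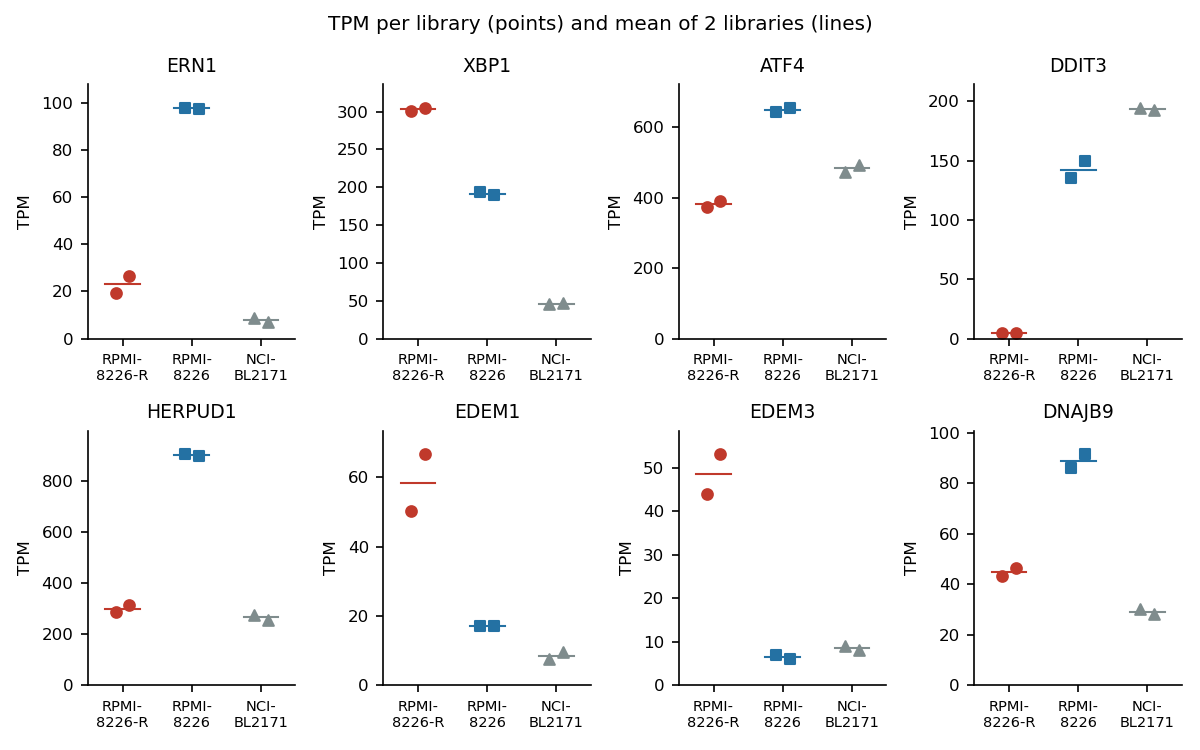
TPM (y axis, from 0) of ERN1, XBP1, ATF4, DDIT3, HERPUD1, EDEM1, EDEM3 and DNAJB9, with 1 point per library and a line at the mean of 2 libraries. In RPMI-8226-R, XBP1, EDEM1 and EDEM3 lie above RPMI-8226, while ERN1, ATF4, DDIT3, HERPUD1 and DNAJB9 lie below it.

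Members grouped by the factor they are mainly known to follow gave mixed counts too. For the counts here and in the next paragraph, the shares among all genes tested were 28.5% higher and 37.2% lower. Under all 6 scalings they were 22.5% and 21.5%. Of 11 linked to ATF6, 2 were called higher, 8 lower and 1 did not pass, and 2 and 4 of these held under all scalings. Of 13 linked to XBP1, 5 were called higher, 6 lower and 2 did not pass, and 3 and 3 of these held. Among 19 signalling genes of the response 3 were called higher, 8 lower and 8 did not pass, and 3 and 6 of these held under all scalings. Beyond the 44, the list of other ER chaperones and folding enzymes had 11 higher, 19 lower and 10 not called of 40 tested. Of these, 9 and 5 held under all scalings. MESD, a chaperone of LDL receptor-family proteins, rose by 1.37 ± 0.08 (edgeR adjusted p = 2.3e-12) and DNAJB12 by 1.74 ± 0.13 (edgeR adjusted p = 2e-10). PDIA2 changed by -3.95 ± 0.18 (edgeR adjusted p = 8.9e-14), with 1.23 and 2.56 TPM in RPMI-8226-R against 22.4 and 24.1 TPM in RPMI-8226, and the sulfhydryl oxidase QSOX1 by -1.77 ± 0.09 (edgeR adjusted p = 2.3e-13).

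Other ERAD genes were called higher in 10 cases and lower in 14 of 30, with FAF2 at 1.12 ± 0.09 (edgeR adjusted p = 3.3e-10) and ERLIN2 at 0.92 ± 0.11 (edgeR adjusted p = 2.3e-07) as the largest rises and, among genes averaging at least 5 TPM in the higher line, TMUB2 at -1.30 ± 0.09 (edgeR adjusted p = 7e-11) and TRIM13 at -1.14 ± 0.11 (edgeR adjusted p = 1.9e-08) as the largest falls. Of these ERAD calls, 10 higher and 8 lower held under all scalings. Other translocation genes were called higher in 10 cases and lower in 11 of 31, and 9 and 5 of these held. TRAM2, a translocon-associated protein, stood at 31.2 and 38.8 TPM in RPMI-8226-R against 5.41 and 5.53 TPM in RPMI-8226, a log2 difference of 2.29 ± 0.08 (edgeR adjusted p = 5e-15), and the signal peptidase subunit SPCS3 rose by 0.83 ± 0.06 (edgeR adjusted p = 2.7e-10). SEC61A2, at -1.35 ± 0.18 (edgeR adjusted p = 1e-06), and DDOST of the oligosaccharyltransferase, at -0.94 ± 0.07 (edgeR adjusted p = 7.2e-11), were the largest falls above the same level. Of the 9 genes of UFM1 conjugation 5 were called higher and 4 lower, and 4 and 1 held under all scalings. DDRGK1 at 0.68 ± 0.10 (edgeR adjusted p = 7e-06) was among those higher, and ODR4 at -0.69 ± 0.09 (edgeR adjusted p = 7.1e-07) and UFM1 itself were among those lower.

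SIL1 and MZB1 are neighbours on chromosome 5, SIL1 at 138946720 to 139293557 and MZB1 at 139387480 to 139390081 (both minus strand, GRCh38). The genes around each member that changed at least 2-fold were therefore listed, 5 tested protein-coding genes on each side, a choice made after the data were seen. Around MZB1, 8 of 10 were called lower and 1 higher in RPMI-8226-R, with a median of -1.29. Around SIL1, 6 of 10 were lower and 3 higher, with a median of -0.71. Among all genes tested, 37.2% were called lower and 28.5% higher. The genes around MZB1 and around SIL1 are not separate sets. Both hold the 2 genes named MATR3, PAIP2 and SLC23A1, and each holds the other member. Those lower beside MZB1 were SIL1, 2 genes named MATR3, PAIP2, SPATA24, DNAJC18, STING1 and UBE2D2, at -0.25 to -2.67. The surroundings of other members came close to those of SIL1: around DERL3 7 of 10 were lower and 3 higher, with a median of -0.68, and around ERO1B 5 were lower and 4 higher, with a median of -0.91. Around the other 7 members the medians ran from -0.47 to 0.14. Whether gene dose or a shared domain has a part in the levels of SIL1 and MZB1 was not tested.

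The remaining comparisons set each RPMI line against the libraries labelled NCI-BL2171 and describe how the myeloma lines differ from them. These comparisons share the libraries labelled NCI-BL2171, so their counts are given side by side only. Most of the 44 genes were higher in the RPMI lines, among them MZB1, FKBP11, TXNDC5, TXNDC11, the derlin DERL1 and 5 of the 7 translocation genes in both lines. The most abundant chaperones, HSP90B1, HSPA5 and CALR, went the other way, and so did SDF2L1 and, among the translocation genes, UFM1. The erythroid markers given above move with this contrast, and their part in it was not tested.

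For RPMI-8226-R against the libraries labelled NCI-BL2171, 27 of the 44 were called higher, 8 lower and 9 did not pass, with 39.2% of all genes called higher and 38.2% lower. Under all 6 scalings 26 were higher and 8 lower, against 32% and 30.9% of all genes. For RPMI-8226 against those libraries, 31 were called higher, 9 lower and 4 did not pass, with 41.1% of all genes higher and 35.6% lower. Under all 6 scalings 25 were higher and 8 lower, against 31.1% and 31.2% of all genes. The members' median log2 fold change was 0.35 for RPMI-8226-R, with 0.00 for all genes, and 0.82 for RPMI-8226, with 0.09 for all genes.

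**Figure D5:**
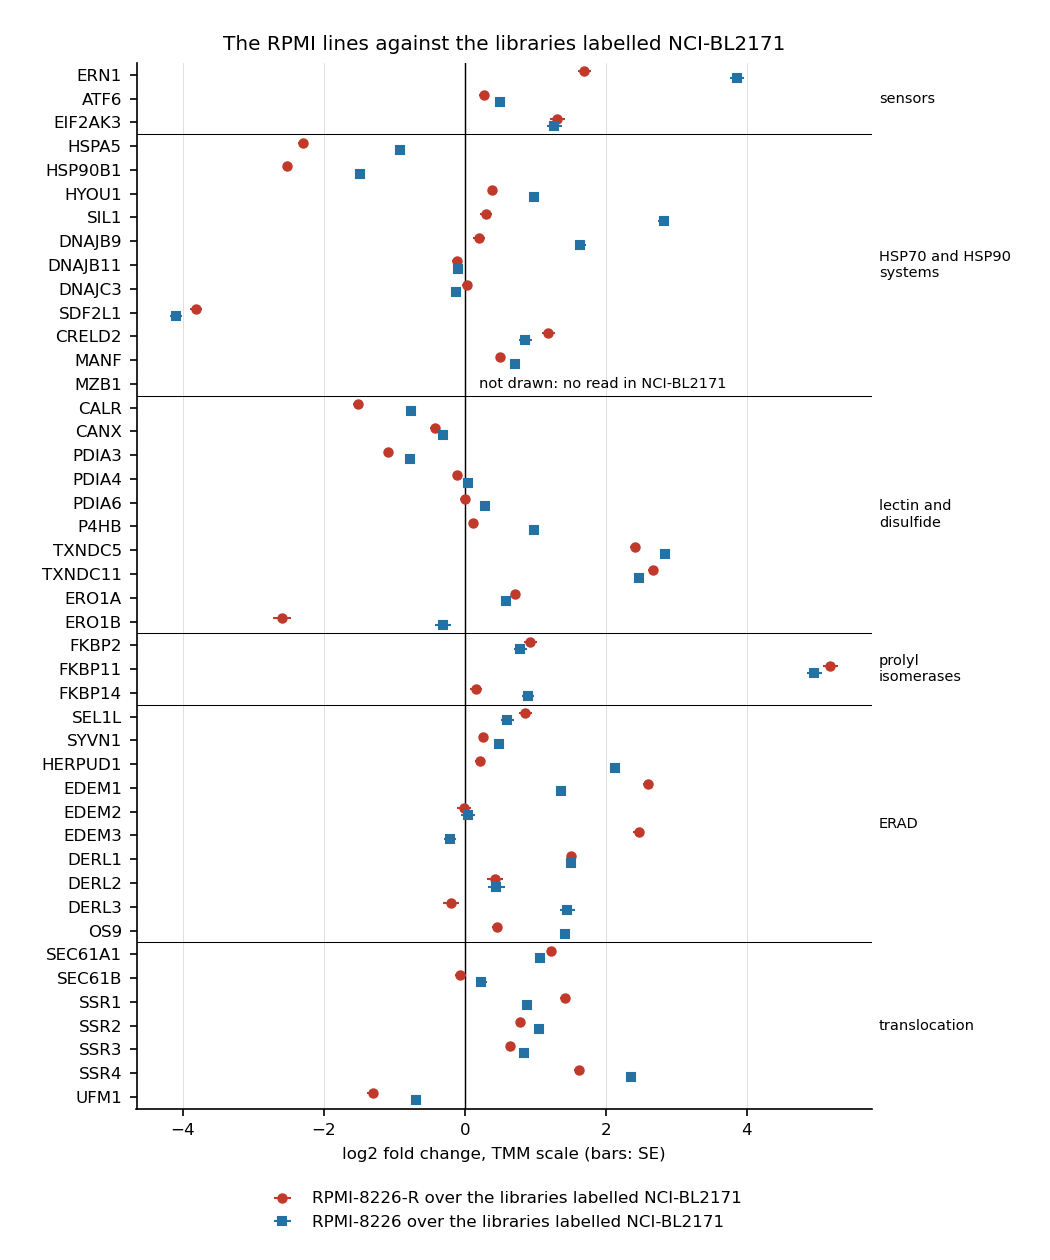
Log2 fold change of 43 of the 44 genes over the libraries labelled NCI-BL2171, on the TMM scale with SE bars, for RPMI-8226-R (circles, upper of each pair) and RPMI-8226 (squares). MZB1 is not drawn because it had no read in those libraries; SDF2L1, HSP90B1 and HSPA5 lie left of 0 for both lines and FKBP11 lies farthest right.

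All 3 sensors were called higher in the RPMI lines, but the call of ATF6 in RPMI-8226 did not hold under all 6 scalings. Of all genes tested, 39.2% were called higher in RPMI-8226-R and 41.1% in RPMI-8226. ERN1 stood at 19.3 and 26.8 TPM in RPMI-8226-R, 98.1 and 97.6 TPM in RPMI-8226 and 8.56 and 6.98 TPM in the libraries labelled NCI-BL2171. It differed from the last of these by 1.70 ± 0.10 (edgeR adjusted p = 3e-10) in RPMI-8226-R and by 3.86 ± 0.10 (edgeR adjusted p = 2.2e-14) in RPMI-8226. EIF2AK3 stood at 13.2 and 13.2 TPM in RPMI-8226-R, 9.19 and 10.2 TPM in RPMI-8226 and 3.80 and 5.08 TPM in the libraries labelled NCI-BL2171, with differences of 1.31 ± 0.11 (edgeR adjusted p = 5.2e-10) in RPMI-8226-R and 1.27 ± 0.11 (edgeR adjusted p = 1e-09) in RPMI-8226. ATF6 stood at 21.5 and 24.8 TPM in RPMI-8226-R, 16.2 and 15.9 TPM in RPMI-8226 and 11.9 and 14.3 TPM in the libraries labelled NCI-BL2171 and differed by 0.28 ± 0.08 (edgeR adjusted p = 0.0025) in RPMI-8226-R, a call lost without NCI-BL2171 replicate 1, and by 0.50 ± 0.08 (edgeR adjusted p = 4.2e-06) in RPMI-8226. XBP1 stood at 300.3 and 305 TPM in RPMI-8226-R, 194 and 189 TPM in RPMI-8226 and 45.0 and 47.4 TPM in the libraries labelled NCI-BL2171 and was 5.87-fold higher in RPMI-8226-R and 4.81-fold higher in RPMI-8226 (edgeR adjusted p = 6.2e-19 and 4.4e-18).

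MZB1 gave the widest contrast. It had no read in either library labelled NCI-BL2171, so with a floor of 3 counts per library it was at least 5443-fold higher in RPMI-8226-R and at least 12330-fold higher in RPMI-8226. FKBP11, a prolyl isomerase abundant in secretory cells, stood at 104 and 93.1 TPM in RPMI-8226-R, 67.3 and 72.3 TPM in RPMI-8226 and 0.597 and 0.489 TPM in the libraries labelled NCI-BL2171 and differed by 5.18 ± 0.11 (edgeR adjusted p = 2.9e-20) in RPMI-8226-R and 4.96 ± 0.11 (edgeR adjusted p = 7.2e-20) in RPMI-8226. The mean transcript length given for it was 1240 bases in RPMI-8226-R, 1153 bases in RPMI-8226 and 4957 bases in the libraries labelled NCI-BL2171. SDF2L1 was the steepest fall of the 44 in both comparisons. It stood at 32.5 and 32.7 TPM in RPMI-8226-R, 20.3 and 20.7 TPM in RPMI-8226 and 431 and 404 TPM in the libraries labelled NCI-BL2171, a difference of -3.81 ± 0.08 (edgeR adjusted p = 4.6e-20) for RPMI-8226-R and -4.09 ± 0.09 (edgeR adjusted p = 2.3e-20) for RPMI-8226. DNAJB11, with which SDF2L1 forms a complex, did not pass in either comparison, and the TPM ratio of SDF2L1 to DNAJB11 was 0.425 and 0.438 in RPMI-8226-R, 0.362 and 0.345 in RPMI-8226, and 6.30 and 5.64 in the libraries labelled NCI-BL2171.

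HSP90B1 stood at 428 and 430.0 TPM in RPMI-8226-R, 685 and 658 TPM in RPMI-8226 and 2118 and 2249 TPM in the libraries labelled NCI-BL2171 and was 5.73-fold lower in RPMI-8226-R and 2.80-fold lower in RPMI-8226 (edgeR adjusted p = 7.8e-19 and 4.2e-15). HSPA5 stood at 405 and 420.5 TPM in RPMI-8226-R, 822 and 799.9 TPM in RPMI-8226 and 1752 and 1826 TPM in the libraries labelled NCI-BL2171 and was 4.91-fold lower in RPMI-8226-R and 1.88-fold lower in RPMI-8226 (edgeR adjusted p = 2.7e-18 and 1.3e-11). CALR stood at 691 and 711 TPM in RPMI-8226-R, 942 and 902 TPM in RPMI-8226 and 1757 and 1874 TPM in the libraries labelled NCI-BL2171 and was 2.86-fold lower in RPMI-8226-R and 1.70-fold lower in RPMI-8226 (edgeR adjusted p = 1.5e-15 and 1.6e-10). For all 3 chaperones the RPMI-8226-R libraries were lowest and no libraries of different lines overlapped. CANX, PDIA3 and ERO1B were also called lower in both RPMI lines, with ERO1B 6.03-fold lower in RPMI-8226-R and 1.23-fold lower in RPMI-8226, the RPMI-8226 call being lost without any 1 of the 4 libraries compared.

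The remaining HSP70 partners were higher in the RPMI lines or did not pass. HYOU1, CRELD2 and MANF were higher in both, by 0.39 to 1.18 on the log2 scale in RPMI-8226-R and by 0.71 to 0.98 in RPMI-8226. SIL1 stood at 51.9 and 51.4 TPM in RPMI-8226-R, 228 and 223 TPM in RPMI-8226 and 35.0 and 37.4 TPM in the libraries labelled NCI-BL2171 and differed by 0.30 ± 0.08 (edgeR adjusted p = 0.0019) in RPMI-8226-R and 2.82 ± 0.08 (edgeR adjusted p = 2.5e-18) in RPMI-8226. DNAJB9 stood at 43.3 and 46.2 TPM in RPMI-8226-R, 85.9 and 91.5 TPM in RPMI-8226 and 30.2 and 28.0 TPM in the libraries labelled NCI-BL2171 and differed by 0.20 ± 0.08 (edgeR adjusted p = 0.029) in RPMI-8226-R, a call lost without NCI-BL2171 replicate 2, and by 1.64 ± 0.08 (edgeR adjusted p = 4.6e-14) in RPMI-8226. DNAJC3 did not pass in either. Of the disulfide genes, TXNDC5 stood at 431 and 465 TPM in RPMI-8226-R, 468 and 458 TPM in RPMI-8226 and 76.3 and 74.4 TPM in the libraries labelled NCI-BL2171 and was 5.33-fold higher in RPMI-8226-R and 7.18-fold higher in RPMI-8226. TXNDC11 stood at 72.5 and 77.0 TPM in RPMI-8226-R, 64.4 and 54.4 TPM in RPMI-8226 and 9.44 and 12.3 TPM in the libraries labelled NCI-BL2171 and was 6.37-fold higher in RPMI-8226-R and 5.55-fold higher in RPMI-8226 (the 4 edgeR adjusted p from 1.1e-19 to 1.2e-17). ERO1A and FKBP2 were called higher in both lines; P4HB, PDIA6 and FKBP14 were called higher in RPMI-8226 and did not pass in RPMI-8226-R, and PDIA4 did not pass in either. Without RPMI-8226-R replicate 1, FKBP14 was called higher in RPMI-8226-R, at 0.25, and DNAJB11 lower, at -0.16 (edgeR adjusted p = 0.020 and 0.048).

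Among the ERAD genes 8 of 10 were called higher in each RPMI line, against 39.2% of all genes in RPMI-8226-R and 41.1% in RPMI-8226. Under all 6 scalings 7 held in RPMI-8226-R and 5 in RPMI-8226, against 32% and 31.1% of all genes. The leading gene differed between the lines. In RPMI-8226-R it was EDEM1, at 50.3 and 66.8 TPM against 7.49 and 9.56 TPM in the libraries labelled NCI-BL2171 and with a difference of 2.60 ± 0.07 (edgeR adjusted p = 3.5e-18), and EDEM3 followed at 2.47 ± 0.08 (edgeR adjusted p = 4.4e-17). In RPMI-8226 it was HERPUD1, at 904 and 895 TPM against 275 and 255 TPM in the libraries labelled NCI-BL2171 and with a difference of 2.13 ± 0.06 (edgeR adjusted p = 1e-17). EDEM3 was instead called lower in RPMI-8226, at -0.20 ± 0.08 (edgeR adjusted p = 0.033), a call lost without either library of RPMI-8226 or NCI-BL2171 replicate 1. HERPUD1 in RPMI-8226-R differed by 0.21 ± 0.06 (edgeR adjusted p = 0.0043), a call lost without NCI-BL2171 replicate 2. DERL1 stood at 65.8 and 73.4 TPM in RPMI-8226-R, 55.5 and 57.2 TPM in RPMI-8226 and 22.5 and 24.2 TPM in the libraries labelled NCI-BL2171 and was 2.86-fold higher in RPMI-8226-R and 2.84-fold higher in RPMI-8226 (edgeR adjusted p = 1e-14 and 1.3e-14). DERL3 was 2.74-fold higher in RPMI-8226 and did not pass in RPMI-8226-R, at -0.20 ± 0.11 (edgeR adjusted p = 0.11), where the TPM scale gave 1.05 and leaving out RPMI-8226-R replicate 2 gave a call at -0.42 (edgeR adjusted p = 0.00031). SEL1L, SYVN1, DERL2 and OS9 were called higher in both lines and EDEM2 passed in neither. In RPMI-8226 the calls of SEL1L, SYVN1 and DERL2 did not hold under all scalings. In RPMI-8226-R, DERL2 lost its call without NCI-BL2171 replicate 1.

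Of the 7 translocation genes 5 were called higher in RPMI-8226-R and 6 in RPMI-8226, against 39.2% and 41.1% of all genes tested. Under all 6 scalings 5 held in each line, against 32% of all genes in RPMI-8226-R and 31.1% in RPMI-8226. SSR4 stood at 459 and 427 TPM in RPMI-8226-R, 536 and 546 TPM in RPMI-8226 and 123 and 126 TPM in the libraries labelled NCI-BL2171 and differed by 1.62 ± 0.07 (edgeR adjusted p = 3e-15) in RPMI-8226-R and 2.36 ± 0.07 (edgeR adjusted p = 5.9e-18) in RPMI-8226. SEC61A1, SSR1, SSR2 and SSR3 were higher by 0.64 to 1.41 on the log2 scale in RPMI-8226-R and by 0.85 to 1.07 in RPMI-8226. SEC61B did not pass in RPMI-8226-R, at -0.06 ± 0.08 (edgeR adjusted p = 0.47), and was called higher in RPMI-8226, at 0.24 ± 0.08 (edgeR adjusted p = 0.0094), a call lost without RPMI-8226 replicate 1 or NCI-BL2171 replicate 2. UFM1 stood at 20.8 and 21.1 TPM in RPMI-8226-R, 26.1 and 25.1 TPM in RPMI-8226 and 45.5 and 48.8 TPM in the libraries labelled NCI-BL2171 and was lower in both, at -1.31 ± 0.07 (edgeR adjusted p = 4.8e-13) for RPMI-8226-R and -0.69 ± 0.07 (edgeR adjusted p = 1.6e-08) for RPMI-8226.

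Calls were also counted by promoter element. Of the 10 genes with an ERSE or ERSE-II, 3 were called higher and 6 lower in RPMI-8226-R, and 4 higher and 6 lower in RPMI-8226, than in the libraries labelled NCI-BL2171. Of the 30 others with a promoter entry, 23 were called higher and 1 lower in RPMI-8226-R, and 24 higher and 2 lower in RPMI-8226. Under all 6 scalings, genes with an element gave 2 higher and 6 lower in RPMI-8226-R, and 3 and 6 in RPMI-8226. The others gave 23 and 1 in RPMI-8226-R, and 19 and 1 in RPMI-8226. Among all genes tested, 39.2% were called higher and 38.2% lower in RPMI-8226-R, and 41.1% and 35.6% in RPMI-8226. The genes with the element that were lower in both lines were HSPA5, HSP90B1, SDF2L1, CALR, CANX and ERO1B. The genes with it that were higher in both were HYOU1, CRELD2 and HERPUD1. These counts are descriptions of 10 and 30 genes, and no test of the difference was made.

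Some of these values depend on how reads were assigned. Of the 44 genes, 32 overlap another annotated gene and 28 overlap one on the other strand. Compared with the reads of the member, those of an overlapping gene reached 315% for SYVN1 (overlapped by FAU and MRPL49), 162% for DERL3 (SMARCB1), 110% for SSR1 (CAGE1 and others), 103% for DNAJB9 (PNPLA8 and THAP5), 88.9% for DERL2 (MIS12), 79.7% for SIL1 (MATR3, SNHG4 and others), 78.0% for TXNDC11 (SNN) and 71.7% for CRELD2 (ALG12). The mean transcript length of a gene differed by more than 1.25 times between RPMI-8226-R and RPMI-8226 for 3 of the 44 genes and for 15.1% of all genes tested. A TPM level is divided by that length, and a TMM-scaled count is not.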

How the data were processed

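The authors deposited 1 table per library with estimated read counts, TPM, and the length and effective length of each gene in bases. Per the submitters' processing notes, reads were placed on GRCh38.p13. Not given in the sources used here are the quantifier, the annotation and the use of strand. Names came from the reference's gene tables and positions from GENCODE 29 (GRCh38). Of 61544 rows, 46 pseudoautosomal copies were summed with their X copies. The deposited estimated counts were rounded and tested with edgeR 4.0.16 in R 4.3.3: filterByExpr (minimum count 10, total 15), TMM factors, robust quasi-likelihood fits over all 6 libraries (3 residual degrees of freedom, biological coefficient of variation 6.81%) and Benjamini-Hochberg adjustment over 20081 genes. The procedure was tested on simulated data. The deposited TPM served for levels, sums and ratios.

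Alternatives were DESeq2 1.42.0, limma-voom (limma 3.58.1), RLE factors, library totals, log2(TPM + 1) with and without centring, log2(TPM + 0.1), an effective-length offset, other low-count filters, a replicate block, the lines compared alone, and leaving out each library. The 6 scalings are TMM, RLE, library totals, log2(TPM + 1) with and without centring, and the effective-length offset. The genes and lists were chosen with earlier results of these data known. Values per library are given for the sensors, HSPA5, HSP90B1, MZB1, every gene changed at least 2-fold between RPMI-8226-R and RPMI-8226, and the largest rise and fall of each role group. Of each list of other pathway genes the 2 largest rises and falls among called genes are named, if the line with more of the gene averaged 5 TPM or more, beside XBP1, ATF4, DDIT3 and PPP1R15A, except 1 gene that is not reported here; other genes are named as examples chosen after their values were seen.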

Additional observations from a re-analysis of the deposited data

How the results depend on the processing

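Leaving out 1 library at a time moved the members' median log2 fold change within -0.22 to -0.19 for RPMI-8226-R against RPMI-8226, 0.35 to 0.36 for RPMI-8226-R against the libraries labelled NCI-BL2171 and 0.78 to 0.84 for RPMI-8226 against them. The members called higher in RPMI-8226-R than in RPMI-8226 numbered 5 to 10, with 5 without RPMI-8226 replicate 1. The 9 higher and 26 lower became 15 and 17 with library totals, 20 and 15 on log2(TPM + 1), 19 and 15 on log2(TPM + 0.1), and 17 lower with centring. Their median of -0.22 became -0.14 with the lines alone, -0.17 with DESeq2, -0.18 with RLE factors, -0.01 with library totals, 0.11 on log2(TPM + 1) and log2(TPM + 0.1), and -0.06 with centring. For RPMI-8226 against the libraries labelled NCI-BL2171, the median of 0.82 became 0.77 with DESeq2 and RLE factors, 0.79 with the offset, 0.65 with totals, 0.58 on log2(TPM + 1), 0.59 on log2(TPM + 0.1) and 0.61 with centring. For RPMI-8226-R against them, 0.35 became 0.49, 0.61, 0.62 and 0.47 with the offset, log2(TPM + 1), log2(TPM + 0.1) and centring. TMM scaling of TPM gave sums of 7467 and 7405 in RPMI-8226-R, 11646 and 11816 in RPMI-8226 and 9463 and 9563 in the libraries labelled NCI-BL2171. Without immunoglobulin and mitochondrial genes the sums were 9760 and 10042 in RPMI-8226-R, 12497 and 12373 in RPMI-8226 and 9843 and 10170 in the libraries labelled NCI-BL2171. The cause of these shifts was not tested.

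Between RPMI-8226-R and its parent RPMI-8226, the log2(TPM + 1) scale turned the sign of ATF6 to 0.50, CANX to 0.21, DERL2 to 0.32, DNAJB11 to 0.37, EDEM2 to 0.29, MANF to 0.21, PDIA3 to 0.07, PDIA4 to 0.16, PDIA6 to 0.09, SEC61B to 0.08, SSR2 to 0.13, SSR3 to 0.04 and SYVN1 to 0.23. With log2(TPM + 0.1) the same genes turned, ATF6 to 0.52, DNAJB11 to 0.38, EDEM2 to 0.31, SYVN1 to 0.24 and the others to within 0.01 of those values. Library totals turned DNAJB11 to 0.20, MANF to 0.01, PDIA4 to 0.07 and SSR3 to 0.01, centring turned ATF6 to 0.33, MANF to 0.04 and SYVN1 to 0.07, and the offset turned ATF6 to 0.20 and ERO1A to -0.26. Against the libraries labelled NCI-BL2171, PDIA4 in RPMI-8226 turned to -0.13 with totals, -0.20 on both TPM scales and -0.16 with centring. In RPMI-8226-R, PDIA6 turned to 0.15 on both TPM scales, and DERL3 to 1.05 on log2(TPM + 1), 1.11 on log2(TPM + 0.1), 0.92 with centring and 0.99 with the offset.

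No pairing of the libraries by replicate number was seen: deviations of same-numbered libraries correlated at 0.013, -0.004 and 0.033 across genes. Counting noise lowers such correlations, so they cannot show that pairing is absent. With a replicate block 9 members were called higher and 26 lower in RPMI-8226-R than in RPMI-8226, with a median of -0.23. Over all results and alternatives, values kept their direction and side of the threshold in 2187 cases, lost a call in 97, gained one in 47 and turned their sign in 45. With 2 libraries a line, small changes near the threshold rest on single libraries, and variation between cultures was not tested.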

Other observations

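Other genes of the same pathways were also set against the libraries labelled NCI-BL2171. Among all genes tested, 39.2% were called higher and 38.2% lower in RPMI-8226-R, and 41.1% higher and 35.6% lower in RPMI-8226. Of 40 other ER chaperones and folding enzymes tested, 25 were called higher and 10 lower in RPMI-8226-R, and 23 higher and 11 lower in RPMI-8226. FKBP9, a prolyl isomerase, had no read in RPMI-8226-R, against 24.9 and 21.1 TPM in those libraries, at least 411-fold lower (taking 3 counts in each library as the floor). It differed by -7.34 ± 0.22 (edgeR adjusted p = 4.2e-17) in RPMI-8226. The collagen chaperone FKBP10 went the other way, at 4.63 ± 0.26 (edgeR adjusted p = 4.1e-13) in RPMI-8226-R and 5.60 ± 0.24 (edgeR adjusted p = 6e-15) in RPMI-8226. The secreted factor CDNF, a relative of MANF, was 16.5-fold higher in RPMI-8226-R (edgeR adjusted p = 5.5e-12), PDIA2 was 37.9-fold higher in RPMI-8226 (edgeR adjusted p = 2.4e-15) and QSOX1 was 4.78-fold lower in RPMI-8226-R (edgeR adjusted p = 7.9e-16).

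Of 30 other ERAD genes, 14 were called higher and 12 lower in RPMI-8226-R, and 12 higher and 13 lower in RPMI-8226. UFD1, a cofactor of the extraction ATPase VCP, stood at 26.8 and 27.4 TPM in RPMI-8226-R, 17.9 and 15.6 TPM in RPMI-8226 and 209 and 199.8 TPM in the libraries labelled NCI-BL2171. On the TMM scale it differed from these by -4.06 ± 0.07 (edgeR adjusted p = 3.1e-21) in RPMI-8226-R and -3.55 ± 0.07 (edgeR adjusted p = 1.6e-20) in RPMI-8226. The order of the RPMI lines was thus not the same on both scales. UBE2J1, a ubiquitin-conjugating enzyme of ERAD, was 4.01-fold higher in RPMI-8226-R and 2.46-fold higher in RPMI-8226 (edgeR adjusted p = 2.8e-16 and 6.3e-13). Of 31 other translocation genes 18 were called higher in each line, and 11 lower in RPMI-8226-R and 9 lower in RPMI-8226. SEC11C, a catalytic subunit of the signal peptidase, stood at 293 and 296 TPM in RPMI-8226-R, 405 and 405 TPM in RPMI-8226 and 20.4 and 21.7 TPM in the libraries labelled NCI-BL2171. TUSC3, an oligosaccharyltransferase subunit, stood at 1.45 and 1.42 TPM in RPMI-8226-R, 1.56 and 2.30 TPM in RPMI-8226 and 72.2 and 66.9 TPM in the libraries labelled NCI-BL2171. Of 9 genes of UFM1 conjugation 2 were called higher and 5 lower in RPMI-8226-R, and 3 higher and 4 lower in RPMI-8226.

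Among 19 signalling genes 7 were called higher and 8 lower in RPMI-8226-R, and 9 higher and 7 lower in RPMI-8226. DDIT3 stood at 4.54 and 4.60 TPM in RPMI-8226-R and 135 and 149.8 TPM in RPMI-8226, against 195 and 192 TPM in the libraries labelled NCI-BL2171, where PPP1R15A stood at 237 and 255 TPM. DDIT3 was 48.9-fold lower in RPMI-8226-R and 1.18-fold lower in RPMI-8226 (edgeR adjusted p = 3.1e-21 and 0.005), and PPP1R15A was 90.4-fold lower in RPMI-8226-R and 1.57-fold lower in RPMI-8226 (edgeR adjusted p = 1.3e-22 and 2.3e-08). ATF4 differed by -0.50 ± 0.06 (edgeR adjusted p = 1.5e-07) in RPMI-8226-R and by 0.66 ± 0.06 (edgeR adjusted p = 2.1e-09) in RPMI-8226.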
